A study of Rattus norvegicus with 10 samples.

Results

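Bc1, brain cytoplasmic RNA 1, is a single row among the 17168 genes listed for the left hippocampus of 10 female rats. It was chosen by its measured counts and CPM in these animals, which differ widely between the 2 groups. Its levels and that difference are therefore given as a description, without a test. All 10 rats were of the TgF344 transgenic model of Alzheimer's disease (genotype Tg-AD), whose transgenes are driven by a prion promoter. Left hippocampi were taken at 11 months, after the rats had been perfused under ketamine and xylazine. The untreated group (n = 5) ate rodent chow. The RG2833 group (n = 5) ate chow that held 750 mg/kg of RG2833, an HDAC1/3 inhibitor, from the age of 5 months and for 6 months. A blue food dye told the chows apart, and the labels do not say which chow held it. No group without the transgenes and no male was analysed here, so the levels describe female transgenic animals only.

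Bc1 is a short rodent RNA that is not translated. RNA polymerase III transcribes it in neurons, and the RNA is carried into dendrites, where it represses the start of translation through initiation factors of the eIF4 family and poly(A)-binding protein. Its 5′ part is the source of the ID repeats scattered through the rat genome, and it carries an A-rich stretch in its middle. The gene is 153 bases long in the RefSeq annotation of GRCr8.

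The start of the gene is shown because it carries the internal promoter and the sequence shared with ID repeats. The RefSeq window on GRCr8, plus strand, chr1:209502647-209502946, is given below, with the first 50 transcribed bases in capitals after 250 bases of upstream sequence in lower case.
Bc1: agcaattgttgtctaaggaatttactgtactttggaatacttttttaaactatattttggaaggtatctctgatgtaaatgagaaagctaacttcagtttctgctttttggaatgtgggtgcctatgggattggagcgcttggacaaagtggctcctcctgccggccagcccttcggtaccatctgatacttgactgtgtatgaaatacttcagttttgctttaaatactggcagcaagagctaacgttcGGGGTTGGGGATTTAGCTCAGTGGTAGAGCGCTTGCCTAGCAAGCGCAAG

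A form of the A box, a motif that RNA polymerase III genes carry inside their transcripts, was searched on both strands. It occurred once, as TAGCTCAGTGG at bases 14 to 24 of the transcript, and the search left the second, the fifth and the sixth of these letters free. Of the 33469 RefSeq promoter windows of 300 bases, 1.86% held the motif on either strand. A run of 20 bases identical to part of the first 50 bases of Bc1 was found on either strand in 242 other windows (0.723%). Of the tested genes, 19 had such a window. None of the 19 was called, against 5.08% of all tested genes, and their median log2 fold change was 0.00.

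Bc1 was detected in every animal. In untreated replicates 1 to 5 the estimated counts were 2959, 3188, 3485, 1836 and 1693. In RG2833 replicates 1 to 5 they were 268, 203, 183, 202 and 183. The lowest untreated animal thus had several times the count of the highest RG2833 animal. On the CPM scale, counts set to 1 common library size after TMM scaling, which assumes that most genes do not differ, the untreated values were 338.5, 318, 323, 171 and 179. The RG2833 values were 25.6, 18.1, 18.9, 20.9 and 19.1 CPM. The means were 266 ± 83.4 and 20.5 ± 3.00 CPM (SD, n = 5 each). The groups did not overlap, a separation with RG2833 lower that 3.47% of the 11791 tested genes showed. The log2 fold change was -3.69 ± 0.22 (SE), so that RG2833 animals held 7.72% of the untreated mean. The ratio of the lowest untreated to the highest RG2833 level was 6.68, and that of the highest to the lowest was 18.7.

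**Figure D1:**
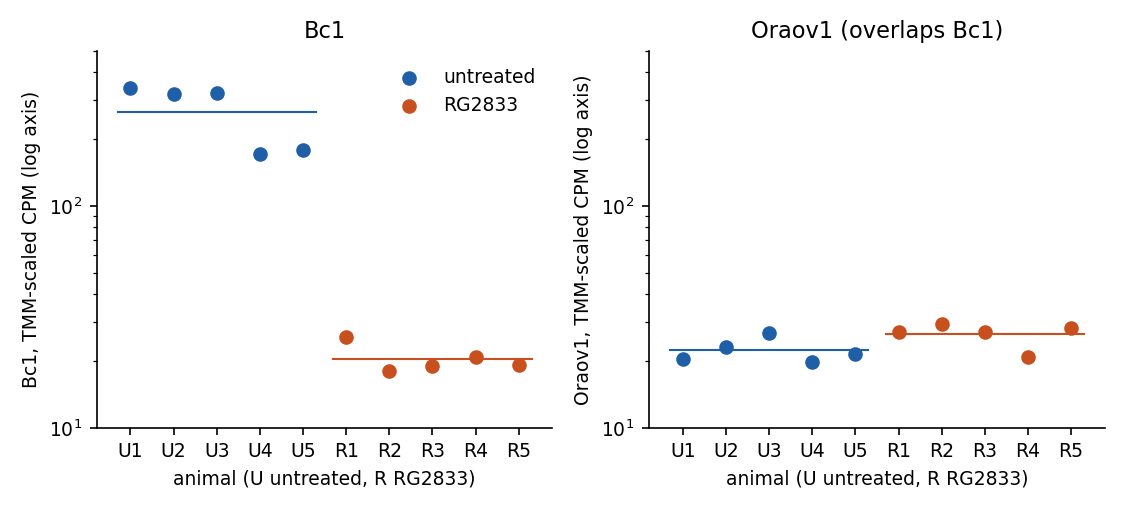
TMM-scaled CPM (log axis) of Bc1 on the left and of Oraov1, which overlaps it in GRCr8, on the right, 1 point per animal, with a line at each group mean (U untreated, R RG2833). Bc1 lies between 171 and 338.5 CPM in untreated animals and between 18.1 and 25.6 CPM in RG2833 animals, whereas the Oraov1 points of both groups lie between 19.8 and 29.3 CPM.

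The difference was also visible in where Bc1 stood within each library. Ordered by count, with no correction for length, Bc1 was at places 480, 498, 529, 1208 and 1130 in untreated replicates 1 to 5. In RG2833 replicates 1 to 5 it was at places 6139, 7266, 7172, 6780 and 7105. Between 13416 and 13589 genes had a count in these animals, so Bc1 stood among the more abundant rows in untreated libraries and near the middle in RG2833 libraries. Its share of all counts was 1 in 2962 to 1 in 5816 in the untreated group and 1 in 39590 to 1 in 55855 in the RG2833 group.

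By log2 fold change, the value it was chosen for, Bc1 was at place 6 from the most negative among all tested genes, and 7 genes were below -3. Of the 4055 genes with an untreated mean of at least 50 CPM, a limit that Bc1 passes only through the untreated group, 2 were more negative than Bc1. This order is a description, and the genes named were chosen after their values were seen. Ttr, the transthyretin gene of choroid plexus, was at -5.10, a value that rests on untreated replicate 1 (2381 CPM). In the other untreated animals Ttr was at most 14.8 CPM, within the RG2833 range of 3.82 to 38.5 CPM or below it. LOC257642, annotated as a ribosomal RNA promoter binding protein and grouped below with ribosomal RNA, was at -3.85. Next after Bc1 came Htr2c, a serotonin receptor gene, at -2.56, also with overlapping groups.

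Untreated animals lay in a high and a low set for Bc1, a split described after its values were seen. Replicates 1, 2 and 3 lay between 318 and 338.5 CPM, and replicates 4 and 5 at 171 and 179 CPM. The gap between the sets was 1.78-fold, or 0.83 on the log2 scale. Their means were 327 and 175 CPM, which are 15.9 and 8.53 times the RG2833 mean. Untreated replicate 4, with the lowest of the 5 levels, therefore still stood well apart from the treated animals.

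The spread of Bc1 between animals was described by its coefficient of variation. It was 31.4% in the untreated group, where counting error alone amounts to 1.95% at a mean count of 2632. In the RG2833 group it was 14.6%, with a counting error of 6.94% at a mean count of 208. Set among all tested genes, the untreated SD of log2 CPM (0.494) was at percentile 89.9 and the RG2833 SD (0.196) at percentile 67.2. Counting error covers only the sampling of reads, since the counts carry no molecular identifiers.

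Library depth was set beside Bc1 inside each group. In untreated animals the order of total counts from high to low was replicate 3, 4, 2, 5, 1. That of Bc1 estimated counts was 3, 2, 1, 4, 5 and that of Bc1 CPM was 1, 3, 2, 5, 4. The animal with the fewest counts, untreated replicate 1 with 8764266, had the highest Bc1 level. In the RG2833 group the order of total counts was 2, 1, 4, 5, 3, that of Bc1 estimated counts was 1, 2, 4, 5, 3 and that of Bc1 CPM was 1, 4, 5, 3, 2. There the estimated counts nearly followed depth, while replicate 2, with the most counts (11311673), had the lowest Bc1 CPM. With 5 animals a group no correlation is given, and the animals form 2 clusters, so none is given over all 10.

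Ribosomal RNA loci took a share of the counts that moved with the groups. This share was 2.91, 5.36, 5.08, 2.70 and 3.08% in untreated replicates 1 to 5, and 1.94, 1.96, 1.13, 1.43 and 1.36% in RG2833 replicates 1 to 5. Within the untreated group, replicate 1 combined the highest Bc1 level with a share close to those of replicates 4 and 5, so the order of Bc1 was not that of the share. Untreated replicate 4 (2.70%) and RG2833 replicate 2 (1.96%) were the closest animals across the groups in this share, and their Bc1 levels were 171 and 18.1 CPM. With the log2 share as a covariate, an alternative to the reported fit, the log2 fold change of Bc1 was -3.07 ± 0.35 (SE). The share does not overlap between the groups, so its part in the difference cannot be told apart from the treatment.

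**Figure D2:**
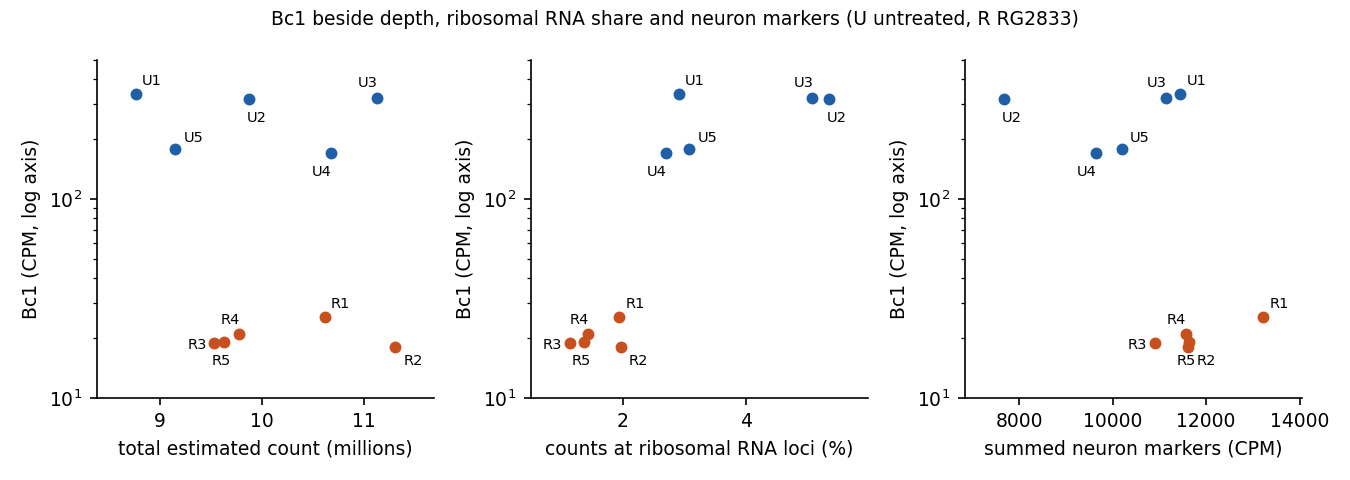
Bc1 level (CPM, log axis) of each animal against its total estimated count, the percent of its counts that fell on ribosomal RNA loci and the summed CPM of 12 neuron markers (U untreated, R RG2833). The groups are apart on the Bc1 axis at like depth, and untreated replicates 4 and 5 lie below the other 3 untreated animals in each panel.

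Bc1 RNA is a product of neurons, and its level was set beside markers of these cells. The summed level of 12 neuron markers was 7663 to 11440 CPM in the untreated group and 10900 to 13220 CPM in the RG2833 group. Rbfox3, a nuclear RNA-binding protein of neurons, rose (edgeR adjusted p = 0.0400), a call that held in 2 of 10 fits that each left out 1 animal and was lost with the covariate and with the replicate block. None of the 12 was called lower by edgeR or DESeq2, beside 2.67% of all tested genes called lower, and 4 had an unadjusted p under 0.05. Slc17a7 was also called by DESeq2's Wald test and by edgeR without untreated replicate 4, and Gad2 by edgeR without untreated replicate 5. Relative to that sum, Bc1 was 1.76 to 4.16% in untreated animals and 0.156 to 0.193% in RG2833 animals. This ratio, too, carries the difference for which Bc1 was chosen. In bulk tissue, fewer cells of a type and less RNA per cell cannot be told apart.

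Markers of other cells were checked in the same way. These lists are short beside a background of 5.08% of tested genes called, so counts of 0 or 1 are near it. All 9 listed markers of hippocampal neurons were tested and 0 were called (smallest edgeR adjusted p = 0.0550, 2 at an unadjusted p under 0.05). DESeq2's Wald test called Neurod2 and Cpne4, limma called Neurod2, and edgeR without untreated replicate 4 called Neurod2 and Wfs1. Their sums were 873 to 1934 CPM in the untreated group and 1512 to 2023 CPM in the RG2833 group. The microglial gene Aif1 fell (edgeR adjusted p = 0.0496), again in 2 of 10 fits without 1 animal. It was not called by limma, without a filter on low counts, with the ribosomal RNA covariate or with the replicate block. The sum of 8 microglial markers was 428 to 694.5 CPM without and 424 to 540 CPM with RG2833. No astrocyte, oligodendrocyte or endothelial marker was called by edgeR, and DESeq2's Wald test called the endothelial gene Cldn5. Without untreated replicate 4 edgeR called the astrocyte gene Aldoc and the endothelial gene Vtn, and without untreated replicate 5 it called Cldn5. Endothelial markers, 6 in all, summed to 222 to 322 CPM in untreated rats and to 205 to 223 CPM in treated ones, with 4 of 6 at an unadjusted p under 0.05. The part of these cells in the difference of Bc1 was not tested. The choroid plexus sum was 5.56 to 2481 CPM in the untreated group and 5.34 to 48.0 CPM in the RG2833 group. The high value came from untreated replicate 1, where Ttr was 2381 CPM. Ttr was not called (edgeR adjusted p = 0.0998), but edgeR called it without untreated replicate 4. In the other untreated animals Ttr was 3.80 to 14.8 CPM and Bc1 was 171 to 323 CPM. The log2 fold change of Bc1 without untreated replicate 1 was -3.59.

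Bc1 does not lie alone in its locus. In the RefSeq annotation of GRCr8 the gene Lto1, listed here under its older name Oraov1, starts inside Bc1 on the same strand and shares 150 of its 153 bases. Lto1 encodes a protein of ribosome and iron-sulfur protein biogenesis. Oraov1 was 20.4, 23.1, 26.9, 19.8 and 21.6 CPM in untreated replicates 1 to 5, and 27.0, 29.3, 27.1, 20.9 and 28.0 CPM in RG2833 replicates 1 to 5. The groups overlapped, and the difference of 0.24 ± 0.11 on the log2 scale (SE) did not pass (edgeR adjusted p = 0.205). The mean of Oraov1 was the higher in RG2833 animals. Whether the annotation behind the counts holds this overlap is not given in the sources used here.

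Of the other neighbours, 5 were found by name in the table, and they were at or near 0 or overlapped between groups. Upstream, Fgf19 had at most 2 counts in an animal, Fgf3 at most 1 and Fgf4 none. Downstream, Ccnd1, which encodes cyclin D1, was 42.3 ± 5.45 CPM without and 36.7 ± 3.09 CPM with RG2833 (SD, n = 5 each; edgeR adjusted p = 0.222). Ano1, a chloride channel gene farther upstream, was 5.09 ± 1.94 and 5.91 ± 1.32 CPM (SD, n = 5 each).

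Estimated counts of Bc1 were not whole numbers in any of the 10 animals, as RSEM gives them where it divides reads between features. Among the 12507 genes with a count in all 10 animals, 10.8% shared this property. Oraov1, which overlaps Bc1 in GRCr8, in contrast had whole counts (within 0.005) in each animal. How far the division of reads moved the level of Bc1 was not tested.

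Bc1 is shorter than nearly every tested gene, so the other short genes were examined, a set chosen after values were seen. Of 12 other tested genes with a span of at most 500 bases, 1 was called, which is near the 5.08% called among all tested genes. This was the pseudogene Rpl37a-ps1, which was lower in RG2833 animals (log2 fold change -1.41 ± 0.13, SE; edgeR adjusted p = 0.000371). The median log2 fold change of the 12 was -0.09. Apart from Rpl37a-ps1 (181 CPM), their untreated means were 0.626 to 13.0 CPM, far below that of Bc1, so the count of calls among them says little. The part of a short span in the difference of Bc1 was not tested. With spans of at most 1000 bases, 3 of 49 were called, all lower, a share of 6.12% beside 5.08% of all tested genes called in either direction and 2.67% called lower.

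Genes of the enzyme that makes Bc1 showed no difference of that size. None of the 27 tested genes for RNA polymerase III subunits, its initiation factors and its repressor Maf1 was called, beside 5.08% of all tested genes (edgeR's quasi-likelihood test, smallest adjusted p = 0.1005). In a list of this length a count of 0 is near that background. At an unadjusted p under 0.05, 3 passed, namely Polr1c (log2 fold change -0.24), Tbp (0.28) and Gtf3c4 (0.36). DESeq2 and limma also called 0. Log2 fold changes lay between -0.24 and 0.36, with a median of 0.04 beside -0.0035 over all tested genes.

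Among the polymerase subunits, Polr3k was 54.1 ± 7.55 CPM without and 47.5 ± 3.49 CPM with RG2833 (SD, n = 5 each). Polr3d was 45.9 ± 3.91 and 48.4 ± 4.13 CPM. Polr3f was 40.5 ± 3.31 and 38.5 ± 4.67 CPM, and Polr3e was 30.8 ± 3.03 and 32.4 ± 2.64 CPM. Each of these 4 pairs of groups overlapped.

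Factors that place the polymerase on its genes also had small differences. Gtf3c1 and Gtf3c2 encode subunits of TFIIIC, the complex that recognises the internal promoter. Gtf3c1 was 125 ± 10.8 and 137 ± 11.1 CPM (SD, n = 5 each; log2 fold change 0.13 ± 0.08, SE), and Gtf3c2 was 51.8 ± 5.44 and 53.8 ± 5.88 CPM. Snapc2, of the complex used at external promoters, was 72.1 ± 11.7 and 73.2 ± 5.87 CPM. Maf1, the repressor of this transcription system, was 104 ± 4.15 and 105 ± 7.28 CPM, or 0.01 ± 0.07 higher on the log2 scale (SE; edgeR adjusted p = 0.948).

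**Figure D3:**
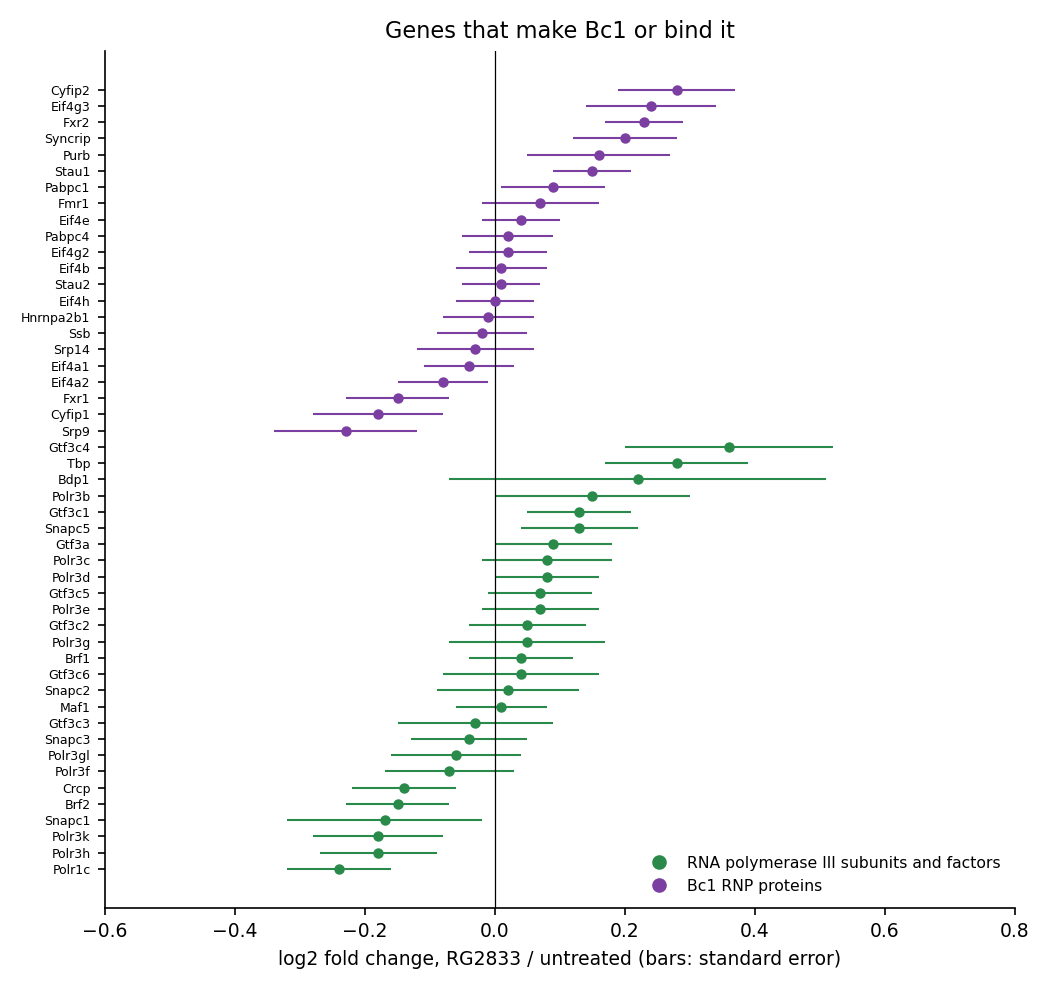
Log2 fold changes (RG2833 over untreated, bars show the standard error) of the 27 tested RNA polymerase III genes (green) and of the 22 tested genes for proteins of the Bc1 ribonucleoprotein and the factors it acts on (purple). Every point lies between -0.24 and 0.36, and edgeR on all 10 animals called none of these genes.

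Proteins that bind Bc1, or through which it acts, were examined in the same way. Of 22 tested genes on this list 0 were called, also near the background of 5.08% (edgeR, smallest adjusted p = 0.0578; 5 at an unadjusted p under 0.05), and the median log2 fold change was 0.01. DESeq2's Wald test called 2, Fxr2 and Cyfip2, and edgeR called 3 without untreated replicate 4, namely Fxr2, Cyfip2 and Eif4g3. All of these calls were higher in RG2833 animals.

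Cyfip2 encodes a binding partner of the fragile X protein. It ranged from 1110 to 1534 CPM in the untreated group and from 1617 to 1723 CPM in the RG2833 group, without overlap (log2 fold change 0.28 ± 0.09, SE; edgeR adjusted p = 0.0788). Groups that do not overlap, in either direction, were found in 7.27% of tested genes. Fxr2, a paralogue of the fragile X gene, ranged from 147 to 166 CPM and from 175 to 197 CPM (edgeR adjusted p = 0.0578). Syncrip also had groups that did not overlap (log2 fold change 0.20, edgeR adjusted p = 0.149). Cyfip1 and Fxr1, on the same list, went the other way, at -0.18 and -0.15, with overlapping groups. Of the 22 log2 fold changes, 13 were positive and 9 negative.

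For the initiation factors, Eif4a2, an RNA helicase of the family that Bc1 inhibits, was 606 ± 45.8 and 573.5 ± 13.6 CPM (SD, n = 5 each). Eif4h, a helper of that helicase, was 388 ± 9.75 and 387 ± 10.8 CPM. Eif4g2, a scaffold protein, was 805 ± 29.6 and 814 ± 34.2 CPM. The groups of these 3 genes overlapped, with log2 fold changes between -0.08 and 0.02.

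**Figure D4:**
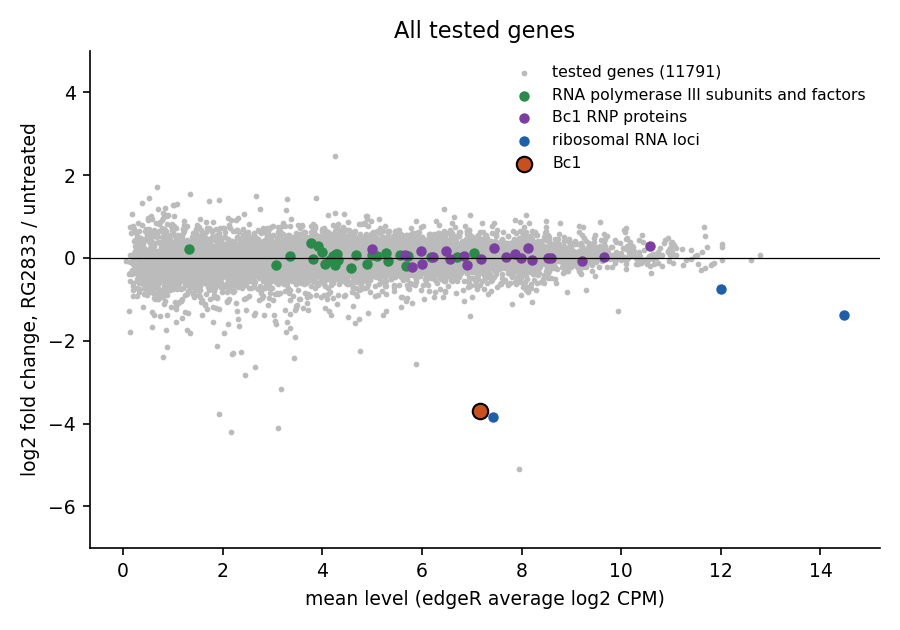
Log2 fold change (RG2833 over untreated) against mean level (average log2 CPM) for the 11791 tested genes in grey, with Bc1, the ribosomal RNA loci, the RNA polymerase III genes and the Bc1 ribonucleoprotein genes in colour. Bc1 at -3.69 lies beside LOC257642 at -3.85 and far below the genes for its polymerase and its protein partners.

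The few other noncoding RNAs that could be tested showed smaller differences. From lists of 42 names, 6 were found in the table and 4 were tested. None was called (edgeR, smallest adjusted p = 0.0897; 2 at an unadjusted p under 0.05), which for 4 genes says little beside a background of 5.08%. DESeq2's Wald test called 1, Gas5, lower in RG2833 animals, and edgeR called Gas5 without untreated replicate 4 and without untreated replicate 5.

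Rmrp, the RNA of a ribonuclease that processes ribosomal RNA, is transcribed by the same polymerase. It was 1.60, 4.89, 2.69, 1.40 and 1.48 CPM in untreated replicates 1 to 5, and 1.72, 0.981, 0.517, 0.828 and 1.26 CPM in RG2833 replicates 1 to 5. These values come from 5 to 49 counts a library and the groups overlapped (log2 fold change -1.18 ± 0.41, SE; edgeR adjusted p = 0.105). Gas5, a host of small nucleolar RNAs, ranged from 18.2 to 35.0 CPM without and from 15.2 to 20.4 CPM with RG2833 (log2 fold change -0.55 ± 0.18, SE; edgeR adjusted p = 0.0897). Snhg11, another such host, was 218 ± 12.3 and 194 ± 37.9 CPM (SD, n = 5 each), and H19, an imprinted RNA, was 1.06 ± 0.266 and 1.24 ± 0.525 CPM.

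Ribosomal RNA loci shared the direction of Bc1. Of 3 tested loci, LOC257642 and Rn45s fell (edgeR adjusted p = 0.00355 and 0.0119), beside 2.67% of all tested genes called lower, and Rn28s missed the threshold (-0.75 ± 0.25 in log2, SE; edgeR adjusted p = 0.0905). The other listed locus, Rn5-8s, had too few counts to be tested. It had 2 to 12 counts in untreated animals and 0 in each RG2833 animal. Set against the Rn45s count of the same animal, Bc1 was 1.36% in untreated replicate 1 and 0.682 to 0.767% in untreated replicates 2 to 5. In the RG2833 group it was 0.114 to 0.204%. This ratio carries the difference for which Bc1 was chosen, so it is a description and no test. It also depends on the locus, since Rn45s had a log2 fold change of -1.37 and LOC257642 one of -3.85, beside -3.69 for Bc1.

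Messenger RNAs that travel into dendrites were examined next. Of 18 tested, 6 were called, all higher in RG2833 animals, beside 2.41% of all tested genes called higher, and 17 of the 18 log2 fold changes were positive (median 0.27). This list was put together with earlier results of these data known and is no independent evidence of its direction. The direction was not particular to it. The 12 neuron markers had a median of 0.26 (8 positive) and the 9 markers of hippocampal neurons one of 0.52 (7 positive). Arc, an activity-regulated gene of the postsynapse, rose by 1.05 ± 0.19 on the log2 scale (SE; edgeR adjusted p = 0.0144). Cnih2, an auxiliary protein of AMPA receptors, rose from 640 ± 167 to 962 ± 46.8 CPM (SD, n = 5 each; edgeR adjusted p = 0.0406).

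The scaffold genes Shank3 and Dlgap3 rose by 0.39 ± 0.09 and 0.41 ± 0.11 on the log2 scale (SE; edgeR adjusted p = 0.0345 and 0.0495). Grin1 and Camk2a, an NMDA receptor subunit and a kinase of the postsynapse, were the other 2 genes called, at 0.46 ± 0.09 and 0.67 ± 0.17 (log2, SE; edgeR adjusted p = 0.0183 and 0.0459), and the groups overlapped for Camk2a. Nrgn, Ddn, Map1b and Actb, the most abundant of the genes not called, had log2 fold changes of 0.14, 0.24, 0.15 and 0.27. The count of 6 was not steady. It was 1 without RG2833 replicate 1, 2 or 5, 2 without RG2833 replicate 3 or 4 or untreated replicate 1 or 3, 3 without untreated replicate 2 and 9 without untreated replicate 4. With the replicate block it was 2 (Arc and Camk2a), and with the covariate for ribosomal RNA it was 0.

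To find the genes most like Bc1 over all 10 animals, log2 CPM was centred per gene and the root mean square difference from Bc1 was taken. The 5 nearest genes were Bnc1 (0.433), RatNP-3b (0.509), LOC100363112 (0.615), Ccl9 (0.666) and LOC257642 (0.700), where a gene that did not vary would be at 1.85. This measure uses the treatment difference, so these genes are described and not tested. Their log2 fold changes lay between -4.20 and -2.64, and in each of the 5 the groups did not overlap.

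Bnc1, a zinc finger gene, was 21.2, 19.1, 16.5, 11.6 and 11.6 CPM in untreated replicates 1 to 5, and 0.668, 1.07, 0.413, 0.931 and 1.47 CPM in RG2833 replicates 1 to 5, the latter from 4 to 14 counts. RatNP-3b, a defensin gene, was 11.1, 10.6, 11.9, 3.26 and 4.34 CPM in the untreated animals and at most 0.931 CPM, or 9 counts, in RG2833 animals. As for Bc1, untreated replicates 4 and 5 were the lowest of their group in both genes. LOC257642 had the same split, at 366, 563 and 412 CPM in untreated replicates 1 to 3 and 128 and 139 CPM in replicates 4 and 5. Ccl9, a chemokine gene, ran from 6.77 to 27.1 CPM without and from 0.732 to 3.51 CPM with RG2833. LOC100363112 was 10.5 ± 3.06 and 1.67 ± 0.394 CPM (SD, n = 5 each).

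A second measure centred each gene on the mean of its group, which takes the treatment difference out. The nearest genes were then Usmg5 (0.139), Gsta4 (0.157), Rassf3 (0.163), Mpc2 (0.166) and Atp5j2 (0.167), where a gene that did not vary would be at 0.336. Of the other tested genes, 3623 were closer to Bc1 than that. Usmg5 and Atp5j2 encode small subunits of the mitochondrial ATP synthase, and Mpc2 encodes a subunit of the mitochondrial pyruvate carrier. Gsta4 encodes a glutathione transferase and Rassf3 a Ras-association protein.

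Usmg5 was 84.3, 71.6, 81.4, 51.7 and 54.9 CPM in untreated replicates 1 to 5, the same order as Bc1, and 40.8, 33.2, 29.9, 38.4 and 32.9 CPM in RG2833 replicates 1 to 5. Replicates 1 and 4 were the highest of the RG2833 group for both genes. The groups did not overlap, and Usmg5 fell by 0.97 ± 0.14 on the log2 scale (SE; edgeR adjusted p = 0.00724). Mpc2 and Atp5j2 fell as well, with log2 fold changes of -0.57 ± 0.13 and -0.56 ± 0.13 (SE; edgeR adjusted p = 0.0365 and 0.0338). Gsta4 (-0.60 ± 0.17, edgeR adjusted p = 0.0644) and Rassf3 (-0.36 ± 0.16, edgeR adjusted p = 0.185) did not pass.

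**Figure D5:**
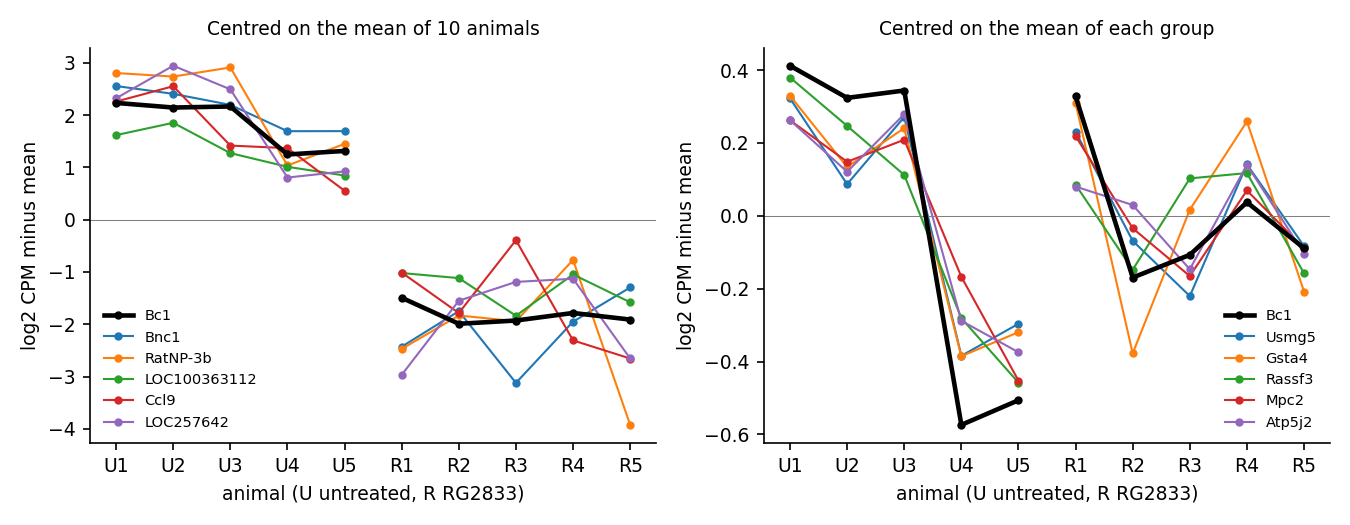
Log2 CPM of Bc1 (black) and of the 5 genes nearest to it, centred on the mean of all 10 animals (left) or of each group (right), 1 point per animal, with lines only to guide the eye (U untreated, R RG2833). On the left the genes share the step between the groups, and on the right Bc1 and the 5 genes are above their group mean in untreated replicates 1 to 3 and below it in replicates 4 and 5.

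Exact agreement in the order of animals was uncommon. In the untreated group 124 of the 11790 other tested genes ranked the 5 animals as Bc1 did, and 190 ranked them in the opposite order. In the RG2833 group these numbers were 67 and 85 (0.568 and 0.721%). The 95% counting intervals of Bc1 in RG2833 replicates 2 to 5 all overlapped (157 to 233 counts), so the order of these animals was not resolved. The order of Bc1 in both groups was found in 1 gene, and the opposite order in both also in 1. The first was Cdk5, named after its values were seen, with a log2 fold change of -0.14. Neither number was tested against chance. The split of untreated replicates 1 to 3 above replicates 4 and 5 was shared by 1850 other tested genes (15.7%), and 1680 (14.2%) showed its reverse. A gap as wide as that of Bc1 was found in 5 of the 1850, with LOC257642 (1.40) and RatNP-3b (1.25, both log2) the widest.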

How the data were processed

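Messenger RNA libraries (strand-specific kit, per the labels' protocols) of 10 hippocampi were used as 2 deposited tables. How fully such libraries take up Bc1, which is no messenger RNA, was not tested, so its CPM describe these libraries. The first holds RSEM estimated counts per gene, deposited by the authors without normalization. The other table is a normalized signal, deposited by the authors as TMM-scaled CPM. Per the submitters' processing notes the tools were bcl2fastq 2.17, Bowtie2 2.1.0, RSEM 1.2.15 and edgeR, with build rn6. Strand settings and annotation are not given in the sources used here. Total counts ran from 8764266 to 11311673 a library, and 3 counts, the floor, equal 0.268 to 0.343 CPM (counting error only).

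Estimated counts were rounded. edgeR 4.0.16 (R 4.3.3) with filterByExpr kept 11791 of 17168 genes, which include Bc1. The quasi-likelihood test with TMM scaling and no covariate was adjusted over all tested genes by the Benjamini-Hochberg method. Genes were called below an adjusted p of 0.05. CPM here differ from the deposited signal by at most 0.7005% for Bc1. For log2 CPM a prior count of 2 was added. The fit was tested on simulated data. Nothing in the labels ties a replicate number to a shared litter or batch, so the fit has no pairing.

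Bc1 and the gene lists were chosen with earlier results of these data known. Named genes were Bc1, the 5 nearest by each of 2 distances, and per list up to 10 called genes and the 4 most abundant others. Any other gene was named after its values were seen. Sequences and spans come from RefSeq (GRCr8), and 11595 tested genes had a span. Alternatives were DESeq2 1.42.0 (size factors and Wald test), limma 3.58.1 (voom, and trend on the deposited signal with pseudocounts of 1 and 0.1), library totals with and without ribosomal RNA loci and Bc1, other filters, a ribosomal RNA covariate, a replicate block and leaving out each animal.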

Additional observations from a re-analysis of the deposited data

Results flagged for a closer look

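In groups of 5 animals, a value was singled out when its gap to the nearest other value, divided by the range of the group, exceeded Dixon's critical value of 0.71. Chance does this in about 1 in 20 groups, and 4 values stood out in 84 groups, none of them a level of Bc1. All 4 were the lowest of the RG2833 group. Oraov1, the gene that overlaps Bc1 in GRCr8, stood at 20.9 CPM in RG2833 replicate 4, and the other treated animals at 27.0 to 29.3 CPM. Snhg11 was 128 CPM in the same animal against 199 to 225 CPM. H19 was 0.310 CPM in RG2833 replicate 3, from 3 counts, against 1.34 to 1.55 CPM. Actb in RG2833 replicate 5 was 3433 CPM, below the 3692 to 3787 CPM of its group.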

How the results depend on the processing

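The log2 fold change of Bc1 moved by less than the pooled SD within groups (0.38) in 20 of 21 alternatives, with a range of -3.82 to -3.58, and was -3.07 with the ribosomal RNA covariate. The count of 599 called genes was 1295 with DESeq2's Wald test, 2 with the ribosomal RNA covariate and 180 with the replicate block, and ran from 98 (without RG2833 replicate 5) to 1556 (without untreated replicate 4) when each animal was left out. Library totals alone gave 228 higher and 367 lower calls in place of 284 and 315. The list of Bc1 ribonucleoprotein proteins went from 0 to 2 calls with DESeq2's Wald test and ran from 0 to 3 without single animals. The list of dendritic mRNAs went from 6 to 0 with the covariate and to 2 with the replicate block, and ran from 1 to 9 without single animals. The list of noncoding RNAs went from 0 to 1 with DESeq2's Wald test and ran from 0 to 1 without single animals. The RNA polymerase III list stayed at 0 in all 21 alternatives. The cause of these shifts was not tested. With a prior count of 0.5 the 5 nearest genes were the same by both distances. Ranked by correlation instead, 2 of the 5 were shared for the pattern over all animals and 1 of the 5 for the group-centred pattern. The labels tie no replicate number to a shared litter or batch. Same-numbered animals had correlations of their deviations from -0.319 to 0.151 (mean -0.0662), so the block was not taken as a pairing. At the counts of Rmrp, Bnc1 and RatNP-3b in RG2833 animals, depth limits the precision of single values.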
